A study of Mus musculus with 8 samples.

Results

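RNA of wild-type mouse E14 embryonic stem cells (ESC) was compared with RNA of the neural progenitor cells (NPC) that were made from them. The comparison takes 4 of the 8 libraries of the series, namely the 2 labelled E14-ESC and the 2 labelled E14-NPC. A gene entered it where its level reached an FPKM of 1 in at least 2 of these 4 libraries, which 12707 of 24306 gene symbols did. FPKM counts sequenced fragments by transcript length and by library size, so that levels of different genes can be set side by side per unit of length. The remaining 4 libraries are ESC and NPC of the same line labelled as knockout for Wdr68, which the tables list as Dcaf7. They served to estimate the spread between duplicates and for the test between genotypes at the end.

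E14 is an established line of mouse ES cells. It was grown in serum medium with the cytokine LIF, the MEK inhibitor PD0325901 and the GSK3 inhibitor CHIR99021, on mouse embryonic fibroblast feeders or on gelatin, and the labels do not say which surface the 2 ESC libraries came from. To make NPC, cells from feeders were first passaged on gelatin and then set up as hanging drops of 500 cells for 2 days in serum medium without LIF and inhibitors. The resulting embryoid bodies stayed in suspension for 2 days and received retinoic acid for 4 more days. No sort or selection of the NPC is described, so they were measured as whole cultures. The stage and the change of medium cannot be told apart in this design. In bulk RNA, moreover, fewer cells of a type and less RNA per cell cannot be told apart.

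The deposited error bounds implied 6413435 and 6820808 fragments for the ESC libraries and 7942644 and 5996677 for the NPC libraries. Genes near an FPKM of 1 had a median of 19.01 to 28.3 fragments. In the ESC libraries 10942 and 10934 genes reached an FPKM of 1, and in the NPC libraries 12209 and 12122. Across the genes tested, which are not independent replicates, the duplicates correlated at r = 0.977 in ESC and 0.964 in NPC on the log2(FPKM + 1) scale, and ESC with NPC libraries at 0.722 to 0.740. Small RNA genes took 32.5% and 35.1% of the summed FPKM in the ESC libraries and 26.4% in each NPC library. The labels call the libraries duplicates without saying whether they were separate cultures. The p-values therefore rest on the differences between duplicate libraries alone, and these may be technical.

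The labels were checked against the defining genes of both cell types. The pluripotency factor genes Pou5f1 and Nanog stood at 838 and 787 and at 421 and 433 FPKM in the ESC libraries, and the progenitor genes Nes and Pax6 at 2.24 and 1.78 and at 0.219 and 0.337. In the NPC libraries Pou5f1 stood at 2.80 and 1.72 and Nanog at 2.87 and 1.36, against 29.8 and 30.2 for Nes and 14.3 and 14.4 for Pax6. The NPC libraries also held RNA of postmitotic neurons, of mesenchyme and of embryonic blood, which is described further on.

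ES cells in the naive state are held there by LIF and by blocking the MEK kinase, while a network of transcription factors around Oct4 (encoded by Pou5f1), Sox2 and Nanog keeps their differentiation genes low. When these signals are removed the cells leave that state, and in embryoid bodies they can enter any germ layer. Retinoic acid, the active form of vitamin A, binds nuclear receptors of the RAR and RXR families on DNA. It switches on Hox genes, which set position along the head-to-tail axis of the neural tube, and it favours hindbrain and spinal cord fates over forebrain fates.

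Most genes differed between the stages. Of 12707 genes, 5363 (42.2%) were higher and 4103 (32.3%) lower in NPC at an adjusted p under 0.05, together 74.5%. The level changed by 2-fold or more in FPKM + 1 in 2960 genes that rose (23.3%) and 1710 that fell (13.5%), and by 4-fold or more in 1036 and 521. The surplus of rises depended on the scaling. Under quantile normalization 4495 genes were higher and 4647 lower, with 2193 and 2171 at 2-fold or more. With median-ratio scaling 4803 were higher and 4688 lower, with 2692 and 2023 at 2-fold or more. Changes are given below as the difference of mean log2(FPKM + 1), NPC minus ESC, with the standard error from limma (± SE). On this scale the change of a gene with a low level is understated. "Rose" and "fell" are used for genes with an adjusted p under 0.05. In every gene so described, both NPC libraries lay above, or both below, the ESC libraries, which was true of 48.7% of all tested genes above and 38.4% below. The counts per gene group below should be read against these shares. A gene that entered only through the stage where it was high had to differ, so these counts describe the listed genes that could be tested and not all genes of a group.

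**Figure D1:**
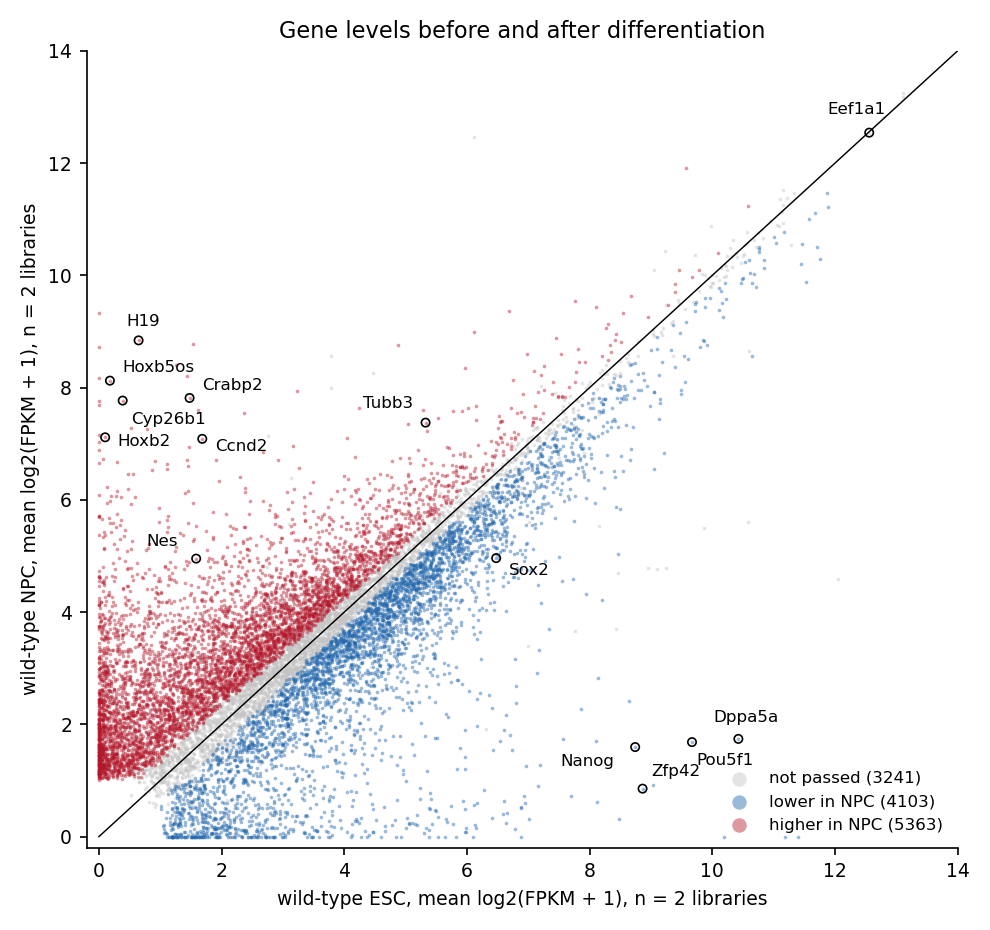
Mean log2(FPKM + 1) of each tested gene in the 2 wild-type ESC libraries (horizontal axis) against the 2 wild-type NPC libraries (vertical axis), 1 point per gene, coloured by the limma call. H19, Hoxb2 and Crabp2 lie far above the diagonal, and Pou5f1, Nanog, Zfp42 and Dppa5a far below it, whereas Sox2 lies close to it.

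The largest rises joined genes of the imprinted H19 and Igf2 pair, Hox genes and genes that handle retinoic acid. H19, an imprinted noncoding RNA, stood at 0.973 and 0.241 in ESC and 445 and 470.1 in NPC (8.19 ± 0.20, adjusted p = 5e-08). Its neighbour Igf2, which encodes a fetal growth factor, stood at 2.88 and 1.15 in ESC and 416 and 463 in NPC (7.25 ± 0.23). Both were near an FPKM of 1 in ESC and far higher in NPC. Other genes among the 12 largest rises were Cyp26b1, Crabp2, Hoxb2, Hoxb3, Hoxa5, Hoxb8, the noncoding Hox cluster transcripts Hoxb5os and Hotairm1, Nrep, and Igfbp4, which encodes a binding protein for insulin-like growth factors. Nrep rose from 1.92 and 0.956 to 342 and 329.8 FPKM (7.14 ± 0.16) and Igfbp4 from 0.975 and 0.486 to 153 and 152 (6.48 ± 0.18).

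The 12 largest falls were mostly genes known from pluripotent cells. Dppa5a, an RNA-binding protein gene of early embryos, stood at 1320.1 and 1427 in ESC and 4.56 and 1.01 in NPC (-8.68 ± 0.44, adjusted p = 1.1e-06). Its NPC duplicates differed from each other, yet both lay far below the ESC libraries. Trh, the gene of thyrotropin-releasing hormone, fell from 517 and 523 to 1.16 and 0.650 (-8.11 ± 0.13). Tdh, which encodes threonine dehydrogenase, an enzyme that mouse ES cells are known to depend on, fell from 269 and 283 to 0.623 and 0.458 (-7.49 ± 0.14). The others were Tdgf1, Zfp42, Pou5f1, Nanog, L1td1, Lefty2, Dnmt3l, Pla2g1b and Rpl10l. Pla2g1b, a secreted phospholipase gene, was listed at 0 in both NPC libraries, after 114 and 121 in ESC.

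The pluripotency network was lower in NPC throughout. All 19 genes of a general pluripotency list were tested and all 19 fell, with a median change of -5.45 beside 0.14 over all tested genes. Pou5f1 (chromosome 17, 35642977 to 35647722, mm9) stood at 838 and 787 in ESC and 2.80 and 1.72 in NPC (-7.98 ± 0.16, adjusted p = 3.2e-08). Nanog stood at 421 and 433 in ESC and 2.87 and 1.36 in NPC (-7.15 ± 0.19, adjusted p = 7.6e-08). For both genes the NPC libraries kept a low level, above 0 in each library.

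Sox2 kept more of its level than Pou5f1 and Nanog. It stood at 92.9 and 83.3 in ESC and 30.4 and 29.9 in NPC (-1.51 ± 0.19). Sox2 is also a gene of neural progenitors, and it counts in both lists. Trim28, a corepressor gene expressed in most cells, fell from 429.9 and 402 to 151 and 164 (-1.40 ± 0.07), and Nr6a1, the germ cell nuclear factor gene, from 11.99 and 12.3 to 6.14 and 5.30 (-0.97 ± 0.14). These 2 and Sox2 showed the smallest falls of the list, together with Foxd3 (-1.55 ± 0.16), a forkhead factor gene of ES cells and neural crest.

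Factors of the early embryo fell to the bottom of the range. The paired chromatin factor genes Dppa2 and Dppa4 went from 74.3 and 66.3 to 0.0463 and 0.189 and from 63.7 and 60.5 to 0.121 and 0. Utf1 fell from 66.7 and 71.0 to 0.0841 and 0.229 (-5.92 ± 0.13). Eras, a Ras-like gene of ES cells, was listed at 0 in both NPC libraries after 8.07 and 11.1 in ESC. Fgf4, the growth factor that drives ES cells toward commitment, fell from 37.4 and 39.2 to 0.0853 and 0 (-5.24 ± 0.11). Lin28a, which blocks maturation of let-7 microRNAs, kept an intermediate level, at 3.51 and 4.35 in NPC after 87.0 and 80.6 in ESC (-4.11 ± 0.10), and Sall4 was similar (3.45 and 3.29 after 57.8 and 43.9).

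Of 21 genes of the naive state, 20 were tested and all 20 fell (median -3.72). Dppa3 did not reach the filter. Zfp42, which encodes Rex1, stood at 451 and 478 in ESC and 1.21 and 0.480 in NPC (-8.01 ± 0.20, adjusted p = 5.6e-08). The transcription factor genes Esrrb (127 and 115 to 0.583 and 0.713, -6.21 ± 0.10), Tfcp2l1 (-6.07 ± 0.12), Klf2 (-5.57 ± 0.12) and Nr5a2 (-3.92 ± 0.13) all fell to an FPKM under 1. Klf4 stayed somewhat higher, at 2.01 and 1.93 after 60.7 and 55.5, and Klf5 at 2.54 and 2.38 after 44.4 and 33.6. LIF and the inhibitors of the ESC medium are known to keep these factors high.

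The receiving end of the LIF pathway was lower but not gone. Lifr, the LIF receptor gene, stood at 10.2 and 11.3 in ESC and 2.66 and 2.66 in NPC (-1.69 ± 0.17). Il6st, which encodes the shared coreceptor gp130, fell only slightly (-0.54 ± 0.10, 8.58 and 8.15 in NPC). Stat3, the transcription factor downstream of it, fell from 21.2 and 21.99 to 7.9996 and 7.45 (-1.37 ± 0.09), and Socs3, a feedback target of STAT3, from 27.1 and 28.1 to 4.66 and 4.52 (-2.36 ± 0.26). Tbx3 and Gbx2, naive genes that later embryonic tissues also use, kept a level in NPC, Tbx3 at 7.41 and 8.79 FPKM and Gbx2 at 7.24 and 5.02. Gbx2 and Il6st showed the smallest changes among the naive genes, and the call of Gbx2 (-0.54 ± 0.16) was lost without ESC replicate 1 (-0.48) or NPC replicate 2 (-0.32).

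Genes of the formative state, which follows the naive one, were mixed. Of 13 tested 7 were higher (53.8%) and 6 lower (46.2%), beside 42.2% and 32.3% over all tested genes. The ETS factor genes Etv5 (88.2 and 82.5 to 2.33 and 1.58, -4.88 ± 0.13) and Etv4 (-3.23 ± 0.09) and the ligand gene Nodal (23.2 and 23.4 in ESC, listed at 0 in both NPC libraries) fell. Otx2, a formative factor and later a forebrain factor, was low in ESC (1.81 and 1.14) and listed at 0 in NPC. Cldn6, a tight junction gene, rose from 2.05 and 1.77 to 52.996 and 69.7 (4.41 ± 0.14), Sall2 by 3.10 ± 0.11, Lef1 by 2.82 ± 0.25 and Sox3, a neural SoxB1 gene, by 2.75 ± 0.19. Fgf5, Fgf8 and Cer1 did not reach the filter.

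Genes of the 2-cell-like state and most tested germline genes were lower in NPC. Zscan4c and Zscan4f, paralogs that mark the 2-cell-like state and can share reads, were under 0.1 in both NPC libraries, after 3.72 and 3.57 in ESC for Zscan4c and 4.49 and 3.93 for Zscan4f. The 6 genes of the 2-cell list that were tested all fell, while 6 others did not reach the filter. The list summed to 98.9 and 104 in ESC and 23.1 and 23.8 in NPC. Most of these sums came from 1 gene, Eif1a, at 83.3 and 86.8 in ESC and 22.4 and 22.9 in NPC. In the germline list 7 of 10 tested genes fell and 2 rose, with falls of Tdrd12 (9.95 and 8.94 to 0.170 and 0.464), a piRNA pathway gene, and Hormad1, a gene of meiotic chromosome axes (5.97 and 5.27 to 0 and 0). Rec8, a meiotic cohesin gene, rose from 2.77 and 2.50 to 11.99 and 10.3 (1.74 ± 0.10), and Sycp1, of the synaptonemal complex, from 2.34 and 2.21 to 3.24 and 3.32 (0.39 ± 0.13). The call of Sycp1 was lost with median-ratio scaling and without any 1 of the wild-type libraries, and its direction turned with quantile normalization (-0.14).

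The DNA methylation machinery changed in composition. Dnmt3l, the cofactor of de novo methylation, stood at 110.5 and 107 in ESC and 0.220 and 0 in NPC (-6.63 ± 0.11). Dnmt3b fell from 14.4 and 14.7 to 3.22 and 2.95 (-1.93 ± 0.10), whereas Dnmt3a rose from 4.01 and 3.29 to 20.5 and 18.9 (2.16 ± 0.11). Among the Tet dioxygenases, which oxidise methylcytosine, Tet1 (30.6 and 34.1 to 4.09 and 3.85) and Tet2 (35.6 and 37.2 to 7.43 and 7.73) fell and Tet3 rose (0.938 and 0.958 to 19.6 and 18.4, 3.36 ± 0.11). In NPC the level of Tet3 was thus above those of Tet1 and Tet2 per unit of length, and in ESC below them. Of the 16 genes on this list 6 rose (37.5%) and 8 fell (50%), beside 42.2% and 32.3% over all tested genes. Zfp57, the guardian of imprints, fell from 217 and 204 to 26.8 and 19.998 (-3.13 ± 0.13).

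**Figure D2:**
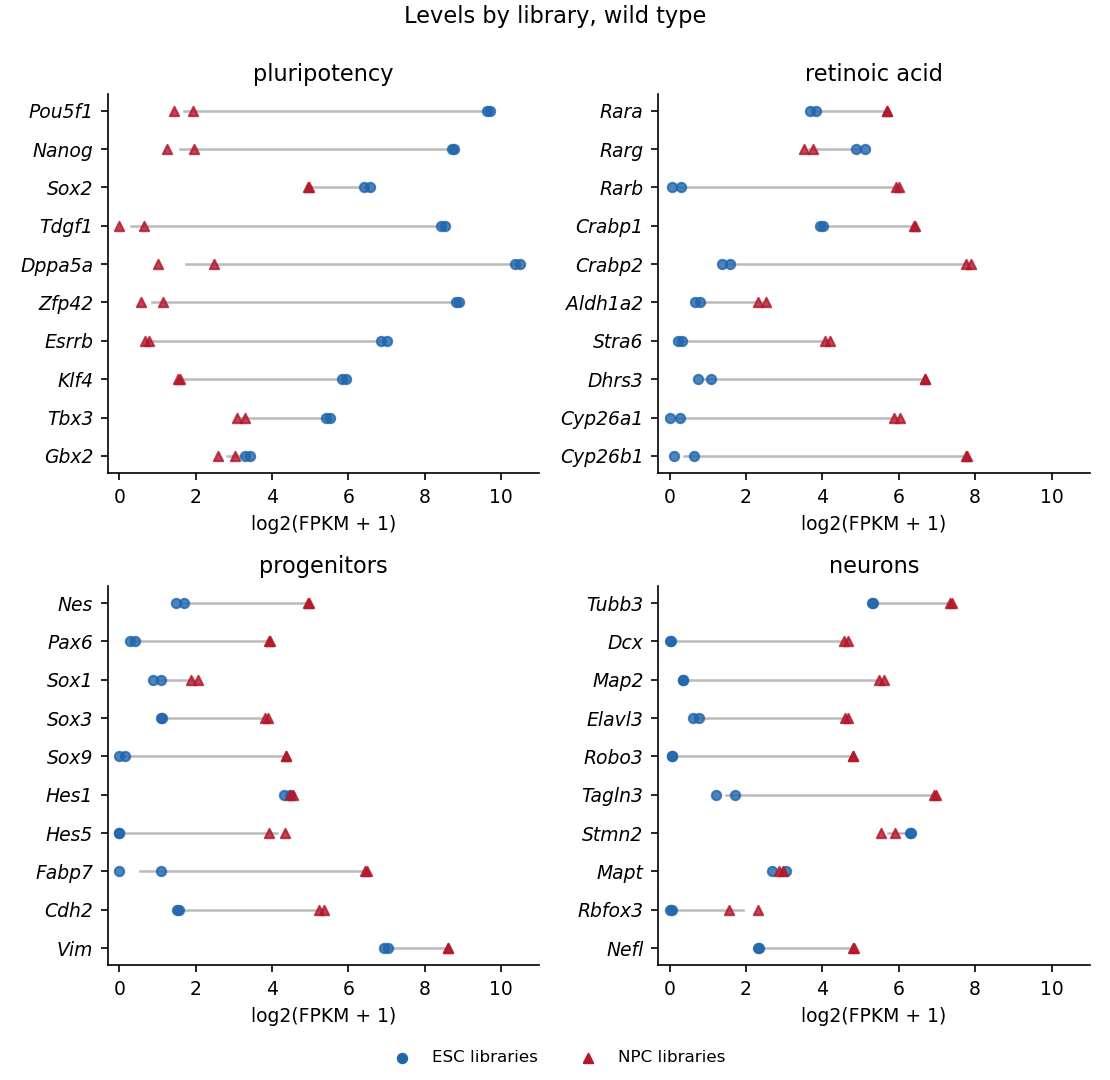
Log2(FPKM + 1) of 40 genes in each wild-type library, in 4 panels for pluripotency, retinoic acid, neural progenitor and neuronal genes; circles are the 2 ESC libraries, triangles the 2 NPC libraries, and grey lines join the means of the stages. The stages are far apart for most genes, while Gbx2, Hes1, Mapt and Stmn2 lie close together.

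Genes that sense, bind, make and degrade retinoic acid were mostly higher. Of 23 tested genes, 20 rose and 2 fell (median 3.87), with 6 more under the filter. Among the receptors, Rarb stood at 0.226 and 0.0405 in ESC and 63.4 and 60.3 in NPC (5.80 ± 0.12, adjusted p = 3.2e-08) and Rara at 13.1 and 11.8 in ESC and 50.8 and 50.5 in NPC (1.94 ± 0.08), whereas Rarg fell from 33.6 and 28.5 to 10.4 and 12.6 (-1.36 ± 0.11). In ESC the order of the receptor levels was Rarg, Rara, Rarb. In NPC the levels of Rara and Rarb lay close together, and Rarg lay below both in each library.

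Binding proteins and enzymes rose with them. Crabp2, which carries retinoic acid to its receptors, stood at 1.99 and 1.59 in ESC and 214 and 235 in NPC (6.34 ± 0.22), and Crabp1 at 14.4 and 15.3 in ESC and 83.1 and 85.6 in NPC (2.43 ± 0.20). Stra6, the retinol uptake receptor gene, rose from 0.250 and 0.157 to 15.8 and 17.3. Enzymes on the side of removal were abundant. Cyp26b1, which degrades retinoic acid, stood at 0.570 and 0.0894 in ESC and 219 and 215 in NPC (7.38 ± 0.16), and Cyp26a1 at 0.203 and 0 in ESC and 64.0 and 57.3 in NPC (5.81 ± 0.17, adjusted p = 1.1e-07). Dhrs3, which returns retinaldehyde to retinol, stood at 1.12 and 0.666 in ESC and 103 and 101.9 in NPC (5.78 ± 0.17). The synthesis enzyme genes Aldh1a2 (4.76 and 3.94 in NPC, 1.69 ± 0.16) and Rdh10 (8.96 and 8.81, 2.11 ± 0.21) reached lower levels than these.

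Known downstream genes followed. Nr2f1, an orphan nuclear receptor gene, rose from 0.384 and 0.181 to 65.9 and 64.7 (5.70 ± 0.12), and its relative Nr2f2 from 0.483 and 0.208 to 30.6 and 27.6. Meis1 and Meis2, cofactors of Hox proteins, rose from 0.637 and 0.298 to 38.7 and 36.0 and from 1.07 and 1.32 to 44.2 and 45.3. Tshz1 rose by 5.23 ± 0.13. Cdx1, a caudal gene that Wnt signalling and retinoic acid can both induce, went the other way, from 21.6 and 20.7 to 0.0520 and 0.0709 (-4.38 ± 0.11).

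Promoters of Rarb and Cyp26a1 are shown because, among the listed genes, the search below found its DR5 repeat in these alone. Both genes are textbook direct targets of the retinoic acid receptors and rose by similar amounts here. The classical response element, DR5, is a direct repeat of the receptor hexamer with 5 bases between the copies. A search of both strands of RefSeq promoter windows (GRCm38.p6, 250 bases before to 50 after a start) found it in 32 of 32851 windows, which is 0.0974%. Of the 66 retinoic acid and Hox genes listed here 43 had a window, and Rarb and Cyp26a1 held the repeat. The sequences are the 250 bases before the start in the gene's own direction, 5′ to 3′, with the hexamers in capitals.
Rarb: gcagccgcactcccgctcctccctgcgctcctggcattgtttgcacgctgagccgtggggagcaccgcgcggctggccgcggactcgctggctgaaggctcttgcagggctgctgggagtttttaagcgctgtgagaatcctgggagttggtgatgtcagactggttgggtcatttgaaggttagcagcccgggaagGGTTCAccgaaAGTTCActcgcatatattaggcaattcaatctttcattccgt
Cyp26a1: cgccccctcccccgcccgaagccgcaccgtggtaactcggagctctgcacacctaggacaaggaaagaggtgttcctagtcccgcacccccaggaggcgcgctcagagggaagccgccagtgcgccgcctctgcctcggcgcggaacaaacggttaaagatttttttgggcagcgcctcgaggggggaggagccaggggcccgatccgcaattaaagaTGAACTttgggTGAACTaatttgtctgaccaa
The Rarb window is chr14:16575477-16575726 on the minus strand, and the repeat spans bases 53 to 37 before the start. The Cyp26a1 window is chr19:37697558-37697807 on the plus strand, with the repeat on the opposite strand from bases 32 to 16 before the start. Of the 31 genes with a DR5 window, 5 were tested, namely Rarb, Cyp26a1 and the globin gene Hbb-y, which rose, Blvrb, a biliverdin reductase gene, which fell (-0.30 ± 0.11), and Syndig1, a synapse gene, which did not pass (-0.08 ± 0.20). The call of Blvrb was lost without ESC replicate 1 (-0.24) or NPC replicate 1 (-0.22). Blvrb and Syndig1 are named because the search found them, after their values were seen. A related repeat with 2 bases between the copies, DR2, was in 88 windows (0.268%) and in none of the 43. A match in these windows is a description of the letters and not of a bound site.

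Hox genes of the lower groups all rose. They encode homeodomain factors whose order along each of 4 clusters, numbered as paralog groups, follows the body axis from hindbrain (low numbers) to tail (high numbers). All 15 genes of groups 1 to 5 were tested and all 15 rose, with a median change of 5.67. Their summed level went from 4.75 and 4.44 FPKM in the ESC libraries to 979 and 981 in the NPC libraries. Hoxa5 was the highest of them at 0.766 and 0.180 in ESC and 153 and 156 in NPC (6.75 ± 0.22), followed by Hoxb2 at 0.0749 and 0.0705 in ESC and 135 and 140.2 in NPC (7.01 ± 0.09) and Hoxb3 at 98.1 and 103 in NPC. Hoxa2 reached 35.9 and 33.1.

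Low levels were reached by 2 genes of group 1. Hoxb1, which marks rhombomere 4 of the hindbrain, reached 6.65 and 7.84 in NPC (2.92 ± 0.12), and Hoxd1 4.27 and 3.90 (2.34 ± 0.11). The NPC levels of Hoxb1 and Hoxd1 did not overlap.

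In groups 6 to 13 the large rises ended at group 9. Of 24 listed genes 16 passed the filter, 13 of them higher and 3 lower. Hoxb9 had the highest level of the protein-coding Hox genes in NPC, at 2.16 and 1.97 in ESC and 192 and 194 in NPC (5.98 ± 0.26). Hoxb8 stood at 0.0437 and 0.0412 in ESC and 100.3 and 109 in NPC, Hoxb6 at 69.4 and 78.8 in NPC, Hoxb7 at 56.9 and 62.8, Hoxa6 at 40.5 and 32.1 and Hoxc6 at 40.3 and 41.1. Outside the Hoxb cluster the levels dropped between groups 6 and 9, to 2.88 and 2.85 for Hoxa9, 1.96 and 2.46 for Hoxc9 and 1.74 and 1.73 for Hoxd9. Genes of groups 10 to 12 missed the filter, except Hoxc12, which was listed at 0 in both NPC libraries after 2.01 and 1.26 in ESC.

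The most caudal genes ran in both directions. Hoxc13 (2.78 and 2.39 to 0.0721 and 0), Hoxc12 and Hoxd13 (1.41 and 1.63 in ESC, listed at 0 in NPC) were low in ESC and fell. Hoxb13 rose from 0.963 and 0 to 3.70 and 3.06 (1.64 ± 0.28), though far below Hoxb9, its neighbour in the cluster. Noncoding RNAs of the clusters rose with the coding genes. Hoxb5os stood at 0.282 and 0 in ESC and 271 and 285 in NPC (7.94 ± 0.18) and Hotairm1, of the Hoxa cluster, at 1.76 and 1.66 in ESC and 321 and 271 in NPC (6.77 ± 0.53). The libraries were strand-specific, but whether the authors' counting used the strand is not given in the sources used here, so reads of overlapping antisense transcripts may be split between them and the coding genes.

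**Figure D3:**
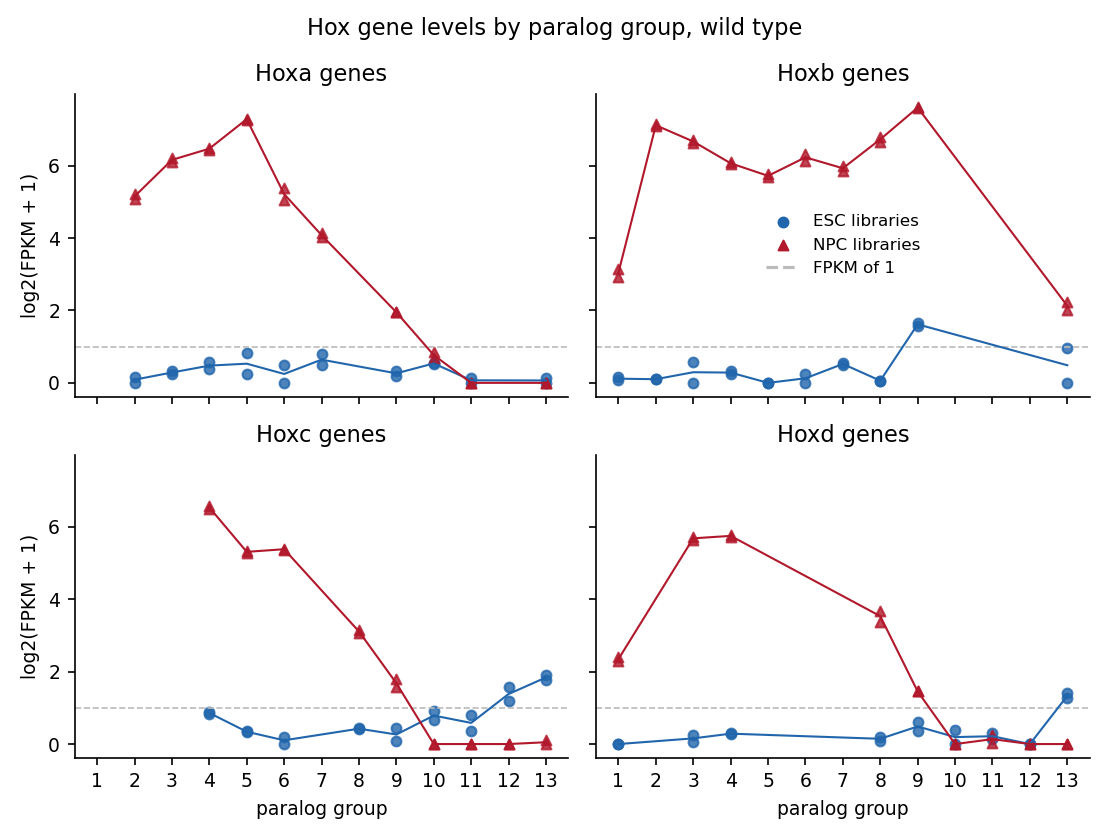
Log2(FPKM + 1) of 38 Hox genes by paralog group, 1 panel per cluster, in the 2 wild-type ESC libraries (circles) and the 2 wild-type NPC libraries (triangles); lines join the stage means and the dashed line marks an FPKM of 1. In NPC the Hoxa, Hoxc and Hoxd genes drop below an FPKM of 3 by group 9, whereas Hoxb9 lies at 192 and 194.

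Other positional genes were those of the hindbrain and spinal cord. Of 14 tested genes 10 rose, among them the Hox cofactor gene Pbx3 (2.15 and 3.17 to 53.4 and 54.0) and the Iroquois gene Irx3 (0.0496 and 0 to 11.204 and 16.5, 3.83 ± 0.17). Cdx1, Nkx1-2, a gene of caudal neuromesodermal progenitors (7.23 and 7.81 to 0.0946 and 0), and Epha4 (-1.69 ± 0.10) fell by 2-fold or more. Forebrain and midbrain genes were at low levels at both stages. Of 18 listed, 12 missed the filter, among them Six3, Rax, Emx1 and En1. Of the 6 tested 3 rose and 3 fell, and the list summed to 7.26 and 5.63 in ESC and 9.63 and 11.4 in NPC. Emx2 was the highest of the 6 tested in NPC, at 3.12 and 3.98 (2.15 ± 0.15).

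Genes of neural progenitors rose in 25 of 28 tested cases, with 1 lower, 2 not passing and 2 more under the filter. Nes, an intermediate filament gene of progenitors, stood at 2.24 and 1.78 in ESC and 29.8 and 30.2 in NPC (3.37 ± 0.11, adjusted p = 2e-07). Pax6, a homeodomain factor gene of the ventricular zone, stood at 0.219 and 0.337 in ESC and 14.3 and 14.4 in NPC (3.59 ± 0.14, adjusted p = 3.7e-07). In each the duplicates were within a few percent of each other in NPC. Fabp7, a fatty acid-binding protein gene of radial glia, stood at 1.15 and 0 in ESC and 89.4 and 84.9 in NPC (5.91 ± 0.31), and Ptn, a secreted growth factor gene, at 0.0641 and 0.0277 in ESC and 42.3 and 36.4 in NPC (5.27 ± 0.13). The highest genes of the list in NPC were Vim, of the intermediate filament vimentin (389 and 387), and Hmga2, a chromatin protein gene of fetal progenitors (90.6 and 97.8), followed by Fabp7.

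The SoxB1 family showed a change of balance. Sox2 fell as given above, Sox3 rose from 1.15 and 1.19 to 13.17 and 13.96 (2.75 ± 0.19) and Sox1 from 1.14 and 0.839 to 2.66 and 3.15 (0.97 ± 0.16). Sox2 was still the highest of the family in NPC, and Sox1 the lowest. Sox9, which progenitors acquire as they become able to make glia and which neural crest and cartilage also express, rose from 0.108 and 0 to 19.7 and 19.7 (4.30 ± 0.14). The POU factor genes Pou3f2 (0.0625 and 0.0530 to 23.7 and 21.8, 4.49 ± 0.16) and Pou3f3 (3.64 ± 0.14) and the zinc finger gene Zic1 (0.204 and 0.160 to 26.1 and 19.4, 4.31 ± 0.15) rose. The astroglial gene Gfap and the forebrain progenitor gene Nr2e1 did not reach the filter.

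Factors that pattern the neural tube from dorsal to ventral rose as well, in 15 of 16 tested cases, while 9 of the 25 listed missed the filter. Msx3, a homeobox gene of the dorsal neural tube, stood at 0.154 and 0.145 in ESC and 71.7 and 60.2 in NPC (5.86 ± 0.41), Pax3 at 0.133 and 0.00158 in ESC and 14.04 and 12.1 in NPC (3.72 ± 0.29) and Olig3 at 0.115 and 0 in ESC and 9.20 and 8.48 in NPC (3.22 ± 0.12). Dbx1, a factor of intermediate progenitors, was listed at 0 in both ESC libraries and stood at 10.3 and 15.2 in NPC (3.76 ± 0.18). The genes that missed the filter were Gsx1, Gsx2, Lmx1a and Dbx2 of the dorsal and intermediate domains, Olig1, Olig2, Nkx6-1, Nkx2-2 and Nkx2-9. Foxa2, which marks the floor plate and also endoderm, reached 1.72 and 2.00 (1.51 ± 0.12). Nkx6-2 was the gene that fell (7.07 and 9.57 to 1.18 and 0.837, -2.21 ± 0.19). The ligand gene Shh itself did not reach the filter.

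Genes that commit progenitors to neurons were present. Of 26 tested genes of the proneural and Notch list 23 rose, and 1 fell. The proneural basic helix-loop-helix genes Neurog1 (0.365 and 0 to 16.3 and 18.1, 3.96 ± 0.20) and Neurod4 (0.0340 and 0 to 9.16 and 9.21, 3.32 ± 0.13) rose. The Notch ligand gene Dll1 stood at 0.0331 and 0.0312 in ESC and 11.97 and 10.5 in NPC (3.57 ± 0.13), the Notch target Hes5, listed at 0 in both ESC libraries, at 14.1 and 19.3 in NPC (4.13 ± 0.16), and Nrarp, a feedback inhibitor and target of Notch, at 1.04 and 0.805 in ESC and 19.5 and 19.1 in NPC (3.40 ± 0.23). Hes1, another Notch target, did not pass (21.2 and 18.9 in ESC and 21.0 and 22.6 in NPC, 0.12 ± 0.12, adjusted p = 0.398), and its ESC and NPC libraries overlapped. Rbpj, the DNA-binding partner of Notch, fell from 54.0 and 53.5 to 28.1 and 27.6 (-0.92 ± 0.07).

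RNA of postmitotic neurons was abundant in cultures labelled as progenitors. All 38 listed genes were tested, 34 rose, 2 fell and 2 did not pass (median 3.06). Tubb3, the neuronal beta-tubulin gene, stood at 39.4 and 38.7 in ESC and 162 and 168 in NPC (2.05 ± 0.19, adjusted p = 3e-05). Its ESC level was far from 0, which sets it apart from the genes that follow. Dcx, a microtubule-associated protein gene of migrating neurons, stood at 0.0193 and 0.00184 in ESC and 22.5 and 24.6 in NPC (4.60 ± 0.16), Map2 at 0.281 and 0.269 in ESC and 48.3 and 44.1 in NPC (5.21 ± 0.13) and Robo3, a guidance receptor gene of commissural axons, at 0.0472 and 0.0445 in ESC and 26.8 and 26.8 in NPC (4.73 ± 0.21). These had levels under an FPKM of 0.3 in every ESC library. Tagln3 stood at 1.34 and 2.31 in ESC and 124 and 121 in NPC (5.47 ± 0.30).

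Other members of the list had other roles. Elavl3 and Elavl4, which encode the RNA-binding proteins HuC and HuD, rose, Elavl3 from 0.531 and 0.713 to 23.1 and 24.4 and Elavl4 from 0.390 and 0.282 to 18.7 and 17.9. Among transcription factor genes of newly born neurons, Nhlh1 reached 12.6 and 14.1, Nhlh2 23.1 and 21.4, Myt1 14.6 and 14.8 and Ebf3 11.9 and 11.4. Some genes of mature neurons lay below these, with Rbfox3 (NeuN) at 3.98 and 1.92, Syt1 at 3.53 and 3.58, Snap25 at 10.97 and 10.4 and Syp at 7.37 and 6.35. Snap25 was only slightly below Ebf3. Other transcription factor genes of the list, namely Onecut1, Onecut2, Ebf1 and Myt1l, lay below Snap25 and Syp in both NPC libraries. The levels therefore give no order of newly born over mature neuron genes. Stmn2 and Nefh fell. Stmn2, a neuronal growth cone gene, was high already in ESC at 77.8 and 78.4 and stood at 45.5 and 59.2 in NPC (-0.58 ± 0.12). Nefh, the heavy neurofilament gene, went from 5.83 and 3.26 to 0.488 and 0.203 (-2.01 ± 0.25). The tau gene Mapt did not pass (7.33 and 5.40 in ESC and 6.81 and 6.29 in NPC, 0.05 ± 0.15, adjusted p = 0.788).

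Homeobox genes of spinal neuron classes were low to moderate, with 14 of 15 tested higher and 16 of 31 listed under the filter. Lhx1, expressed in several dorsal and ventral interneuron classes and in intermediate mesoderm, stood at 0.126 and 0 in ESC and 18.6 and 25.4 in NPC (4.42 ± 0.16), and Lhx5 at 0 and 0.0401 in ESC and 9.17 and 8.55 in NPC (3.27 ± 0.12). Pax2 (5.61 and 8.66 in NPC) and Pax8 (5.23 and 5.75) are genes of inhibitory interneurons, and Lbx1 stood at 5.12 and 6.31 in NPC. Pax2 is also on the list of lateral and intermediate mesoderm, and which cells held the RNA of these genes was not tested. The motor neuron genes Mnx1 (1.99 and 2.63, 1.72 ± 0.12) and Isl1 (3.39 and 2.45, 1.70 ± 0.19) rose, and Isl2, Lhx3 and Lhx4 missed the filter. Mnx1 and Isl1 were chosen after their values were seen, so they give no ranking of neuron classes. Pou4f2 was the member that fell (-0.67 ± 0.13).

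In the neural crest list 11 of 16 tested genes rose and 5 fell, and Sox10 did not reach the filter. Ednrb, an endothelin receptor gene that neural progenitors also express, stood at 0.135 and 0.149 in ESC and 47.3 and 37.1 in NPC (5.23 ± 0.18), Tfap2b at 0.0588 and 0 in ESC and 8.71 and 7.28 in NPC (3.12 ± 0.15) and Twist1, a gene of migrating crest and mesenchyme, at 1.42 and 1.90 in ESC and 18.997 and 25.4 in NPC (3.12 ± 0.18). Mitf, the melanocyte regulator gene, fell from 14.2 and 18.6 to 0.422 and 1.18 (-3.29 ± 0.23), and Tfap2c and Foxd3, which ES cells express, fell by 1.89 and 1.55.

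The cadherins changed places. Cdh1, which encodes E-cadherin, stood at 112 and 104 in ESC and 22.1 and 25.1 in NPC (-2.15 ± 0.11, adjusted p = 1.4e-06), and Cdh2, which encodes N-cadherin, at 1.87 and 1.97 in ESC and 40.1 and 36.6 in NPC (3.75 ± 0.11, adjusted p = 1.1e-07). The order of the 2 levels was reversed between the stages without overlap, and Cdh1 RNA was still present in NPC. Cdh11, a mesenchymal cadherin, rose from 1.29 and 1.74 to 40.1 and 42.9 (4.09 ± 0.11). Epithelial genes rose beside the mesenchymal ones, so that 18 of 21 tested genes of this list were higher. The keratin gene Krt18 stood at 2.77 and 3.03 in ESC and 74.1 and 85.3 in NPC (4.37 ± 0.10) and Krt19 at 1.55 and 1.81 in ESC and 25.4 and 33.5 in NPC (3.50 ± 0.29). Cldn6, already given, is part of this list too. Fn1, fibronectin, fell from 106 and 101.5 to 36.4 and 35.9 (-1.50 ± 0.07).

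RNA-binding proteins showed exchanges between relatives. Ptbp1, a splicing repressor of non-neural cells, stood at 222 and 224 in ESC and 107 and 114 in NPC (-1.003 ± 0.06), and Ptbp2, its neural relative, at 6.45 and 6.74 in ESC and 111 and 97.6 in NPC (3.79 ± 0.09, adjusted p = 4.6e-08). Per unit of length Ptbp1 was far above Ptbp2 in ESC, and in NPC their levels overlapped. Of 24 tested RNA-binding genes 16 rose and 6 fell. Lin28a fell while Lin28b did not pass (5.65 and 5.41 in ESC and 7.81 and 6.24 in NPC, 0.29 ± 0.14). Trim71, a let-7 target of early embryos, fell from 18.7 and 19.1 to 2.03 and 1.52 (-2.85 ± 0.14), and Hmga2, a let-7 target too, rose from 8.36 and 8.72 to 90.6 and 97.8 (3.32 ± 0.09). Srrm4, which directs neuronal microexons, rose from 0.382 and 0.249 to 8.11 and 8.41 (2.82 ± 0.15), Nova1 by 2.97 ± 0.13 and Celf3 by 3.69 ± 0.14.

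The BAF chromatin remodelling complex is known to exchange subunits as ES cells become neural progenitors and neurons. All 22 listed subunits were tested, 15 rose, 2 fell and 5 did not pass. Of the paired subunits, Smarcc1 (BAF155) did not pass (57.8 and 55.1 in ESC and 51.4 and 52.1 in NPC, -0.12 ± 0.08), while Smarcc2 (BAF170) stood at 4.52 and 4.19 in ESC and 34.6 and 33.3 in NPC (2.71 ± 0.09). The ATPase gene Smarca2 (BRM) rose from 0.547 and 0.343 to 11.4 and 10.8 (3.07 ± 0.14), and Smarca4 (BRG1), the ATPase of ES cells, from 34.8 and 32.5 to 45.5 and 50.4 (0.50 ± 0.08). Brg1 RNA stayed above Brm RNA in NPC per unit of length. Actl6a (BAF53a) fell from 85.8 and 82.7 to 49.0 and 45.2 (-0.83 ± 0.08), and Actl6b (BAF53b), the subunit of postmitotic neurons, was listed at 0 in ESC and reached 2.15 and 4.16 (2.01 ± 0.21). Ss18 fell (-0.49 ± 0.08) and its neuronal relative Ss18l1 (CREST) rose (1.58 ± 0.22).

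**Figure D4:**
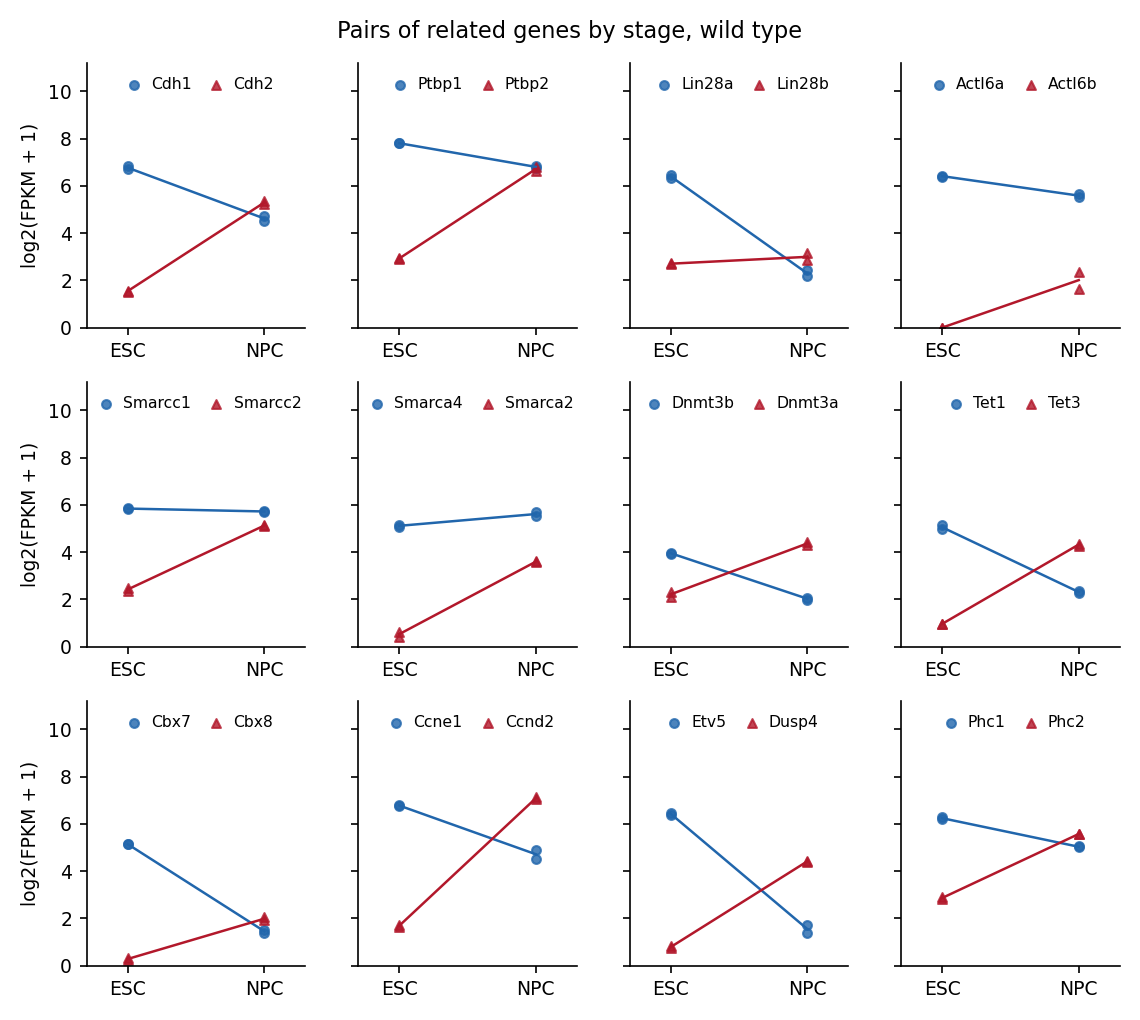
Log2(FPKM + 1) of 12 pairs of related genes in the 2 wild-type ESC and 2 wild-type NPC libraries; points are libraries, lines join stage means, and each panel has its own pair. The lines cross for Cdh1 and Cdh2, Dnmt3b and Dnmt3a, Tet1 and Tet3, Cbx7 and Cbx8, Phc1 and Phc2, Lin28a and Lin28b, Etv5 and Dusp4, and Ccne1 and Ccnd2. Those of Ptbp1 and Ptbp2 meet in NPC, while Actl6a, Smarcc1 and Smarca4 stay above Actl6b, Smarcc2 and Smarca2.

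Polycomb complexes keep developmental genes such as Hox silent, PRC1 by ubiquitinating histone H2A and PRC2 by methylating histone H3, and the series names the PRC1 form with AUTS2 that is known to activate genes. Of 28 PRC1 and AUTS2 genes, 14 rose (50%) and 8 fell (28.6%), near the 42.2% and 32.3% over all tested genes. Auts2 (chromosome 5, 131913552 to 133018213, mm9) stood at 1.71 and 1.305 in ESC and 14.1 and 14.7 in NPC (2.62 ± 0.12, adjusted p = 7.7e-07), and Dcaf7, the gene of WDR68 (chromosome 11, 105898186 to 105920637, mm9), at 12.4 and 14.2 in ESC and 27.2 and 29.6 in NPC (1.04 ± 0.12, adjusted p = 9.5e-05). Of the RING subunit genes, Ring1 (RING1A) rose from 2.80 and 3.19 to 10.1 and 10.3 (1.49 ± 0.11). Rnf2 (RING1B) rose slightly (0.24 ± 0.06), a call that median-ratio scaling ended (0.10) and that was lost without ESC replicate 2 (0.20). Pcgf3 rose from 11.99 and 11.5 to 24.998 and 24.0 (1.002 ± 0.11), and Pcgf5, the other PCGF protein known from the AUTS2 complex, fell from 4.01 and 4.31 to 2.09 and 0.672 (-1.18 ± 0.27).

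Chromobox and polyhomeotic subunits shifted too. Cbx7, the main chromobox gene of ES cells, stood at 34.0 and 34.7 in ESC and 1.61 and 1.88 in NPC (-3.69 ± 0.13), whereas Cbx8 (0.180 and 0.254 to 3.18 and 2.77, 1.71 ± 0.16) and Cbx2 (9.39 and 8.19 to 25.5 and 22.9, 1.36 ± 0.10) rose. Phc1 fell from 77.7 and 71.8 to 31.2 and 32.2 (-1.21 ± 0.08) and Phc2 rose from 6.46 and 6.09 to 47.1 and 46.1 (2.71 ± 0.08). Bmi1 (PCGF4) rose by 1.49 ± 0.17. In PRC2, 8 of 11 tested genes fell and 1 rose. The gene listed as E130012A19Rik, a synonym of the ES cell PRC2 cofactor gene Epop, fell from 144 and 138 to 5.596 and 7.63 (-4.23 ± 0.12), and Eed from 110.1 and 115 to 23.1 and 23.7 (-2.22 ± 0.07). The methyltransferase gene Ezh2 was the one that rose, slightly (87.1 and 81.7 in ESC and 98.8 and 95.5 in NPC, 0.20 ± 0.07). That call was lost with median-ratio scaling (0.06) and without ESC replicate 2 (0.16) or NPC replicate 1 (0.18), and also, at the same change, in a fit of the wild-type libraries alone and in one without the variance trend.

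Genes of DNA replication and mitosis were mostly lower, while G1 regulators changed in both directions. Of 31 DNA replication genes 27 fell and 1 rose (median -0.80), and of 25 mitosis genes 18 fell and 2 rose (median -0.43). Orc1, a subunit of the origin recognition complex, fell from 32.2 and 38.1 to 5.18 and 4.88 (-2.58 ± 0.12), Mcm10 by 2.15 and Mcm5, of the replicative helicase, by 1.48. Cdc20, an activator of the anaphase-promoting complex, fell from 98.3 and 98.2 to 38.6 and 43.1 (-1.25 ± 0.09). Mki67, a marker of cycling cells, rose from 27.1 and 29.5 to 45.7 and 42.6 (0.63 ± 0.11), so the direction was not shared by all proliferation genes.

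Among 20 G1 genes 9 rose (45%) and 7 fell (35%), near the 42.2% and 32.3% over all tested genes. Ccne1, the cyclin E gene that runs high in ES cells, stood at 106 and 111 in ESC and 22.1 and 28.9 in NPC (-2.06 ± 0.11), and Ccnd2, a D-type cyclin of neural progenitors, at 2.30 and 2.13 in ESC and 138 and 131 in NPC (5.40 ± 0.11). Cdkn1c, the imprinted gene of the CDK inhibitor p57, stood at 1.04 and 1.301 in ESC and 95.4 and 101.4 in NPC (5.52 ± 0.15), and Cdkn1b (p27) at 19.98 and 11.8 in ESC and 44.4 and 43.0 in NPC (1.45 ± 0.20). Rb1, the retinoblastoma gene, rose from 1.74 and 1.23 to 12.5 and 14.7 (2.55 ± 0.15). Of 19 p53 genes tested 6 rose and 9 fell. Trp53 itself fell from 199.5 and 170.4 to 70.5 and 71.3 (-1.37 ± 0.09), Gtse1 by 1.69 and Bax by 0.87, and Gadd45a rose by 1.304 ± 0.20.

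Metabolic genes were mixed. Of 28 tested glycolysis and hypoxia genes 9 rose (32.1%) and 11 fell (39.3%), beside 42.2% and 32.3% over all tested genes. Without wild-type ESC replicate 2, or without wild-type NPC replicate 1, 10 rose and 9 fell. Slc2a3, the glucose transporter gene GLUT3, stood at 342 and 361 in ESC and 29.2 and 34.9 in NPC (-3.42 ± 0.09). The enzyme genes Hk2 (71.6 and 71.5 to 19.6 and 23.4, -1.69 ± 0.09) and Pfkp (-2.46 ± 0.15) and Pdk1 (-1.64 ± 0.11), which shields pyruvate from oxidation, fell. Among the members that rose were Vegfa, from 2.37 and 2.42 to 32.6 and 34.1 (3.34 ± 0.12), Ddit4, from 5.41 and 7.26 to 44.9 and 61.5 (2.88 ± 0.19), and Bnip3, by 2.45 ± 0.15.

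Respiratory chain and ribosomal protein genes changed little, and their balance depended on the scaling. Of 30 nuclear-encoded respiratory genes 1 rose and 15 fell as deposited, 0 and 21 with median-ratio scaling, and 10 and 12 with quantile normalization. Cox7a1, a muscle isoform that ES cells express, was the one with a large change (28.3 and 27.9 to 2.48 and 0.676, -3.59 ± 0.31). Of 34 ribosomal protein genes 1 rose and 10 fell as deposited, 0 and 22 with median-ratio scaling, and 8 and 6 with quantile normalization, and none changed by 2-fold. In the cholesterol and fatty acid list 8 of 28 rose (28.6%) and 12 fell (42.9%), beside 42.2% and 32.3% over all tested genes. Elovl6 fell from 44.6 and 47.3 to 10.5 and 10.9 (-2.01 ± 0.09). Scd2, the desaturase gene of the developing brain, rose from 107 and 105 to 283 and 276 (1.39 ± 0.08).

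Target genes of the FGF and ERK pathway changed in both directions. Etv5, Etv4 and Spry4 (22.8 and 19.2 to 0.641 and 0.375, -3.87 ± 0.14), which are induced by ERK in many cells, fell. The ESC medium held a MEK inhibitor, and the differentiation medium did not. Over the list of ERK targets 8 of 17 tested genes rose (47.1%) and 6 fell (35.3%), near the 42.2% and 32.3% over all tested genes. Egr1 (0.298 and 0.386 to 35.6 and 52.2, 5.04 ± 0.23), Fos (0.339 and 0.372 to 11.7 and 23.3, 3.69 ± 0.34), which are immediate early genes, and the phosphatase gene Dusp4 (3.63 ± 0.17) rose. Among the ligands and receptors, Fgf4 fell, and the receptor genes Fgfr2 (0.252 and 0.389 to 20.7 and 20.2, 4.02 ± 0.12) and Fgfr3 (2.97 ± 0.24) rose. Fgfr1 rose from 16.6 and 15.2 to 22.2 and 23.7 and stayed the highest of these receptors, close to Fgfr2 in NPC.

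Nodal signalling genes were among the deepest falls. Tdgf1, which encodes the coreceptor Cripto, went from 344 and 365 to 0.560 and 0 (-8.15 ± 0.18), and Lefty2, which encodes an inhibitor and is itself a target of the pathway, from 126 and 130.0 to 0.463 and 0.0486 (-6.71 ± 0.15). Its neighbour Lefty1 was listed at 0 in both NPC libraries, after 25.6 and 30.3 in ESC. Bmp4 fell from 25.04 and 24.7 to 4.04 and 6.56 (-2.07 ± 0.17). Targets of BMP of the Id family rose, Id2 from 2.70 and 1.04 to 87.6 and 104 (5.14 ± 0.30) and Id3 from 36.2 and 39.9 to 189 and 196 (2.31 ± 0.08), and so did the ligand gene Bmp7 (1.17 and 1.04 to 13.6 and 15.3, 2.87 ± 0.13). Over the whole list of 20 tested genes 12 rose and 7 fell.

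In the Wnt list 15 of 22 tested genes rose and 5 fell. Wnt1, a ligand of the midbrain and dorsal neural tube, was listed at 0 in ESC and stood at 18.2 and 16.6 in NPC (4.20 ± 0.24), and the receptor gene Fzd3 stood at 0.440 and 0.625 in ESC and 30.1 and 26.7 in NPC (4.26 ± 0.14). The transcription factor gene Lef1 rose by 2.82 ± 0.25. The falls were largest for Cdx1, T (Brachyury, 3.25 and 3.27 to 0.0436 and 0) and Notum (9.88 and 10.5 to 1.77 and 1.75). In the Hedgehog list 10 of 12 tested genes rose and 2 fell. Gas1, a coreceptor gene, stood at 0.693 and 0.343 in ESC and 63.5 and 67.3 in NPC (5.46 ± 0.13), Boc rose by 3.51 ± 0.18 and Smo, the signal transducer, from 6.79 and 6.53 to 45.8 and 44.8 (2.60 ± 0.09).

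Imprinted genes rose as a group, in 22 of 28 tested cases, with 3 lower (median 1.88). Beside H19, Igf2 and Cdkn1c, Nnat stood at 5.32 and 3.23 in ESC and 177 and 195 in NPC (5.18 ± 0.17) and Peg3 at 2.79 and 2.76 in ESC and 109 and 97.4 in NPC (4.79 ± 0.12). Phlda2 fell from 17.8 and 19.4 to 0.453 and 3.09 (-3.01 ± 0.40), with NPC duplicates that differed, and Impact fell by 0.73. Many of these genes are known to be high in fetal mesenchyme and brain and low in ES cells, and several share clusters, so their changes are not independent.

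Markers of several cell types other than neural ones were also present in these unsorted NPC cultures, some lists mostly higher and others mixed. All 16 tested genes of fibroblasts and mesenchyme rose, and their summed level over the 20 listed went from 6.47 and 5.00 FPKM in ESC to 137 and 158 in NPC. Col3a1, a fibrillar collagen gene, stood at 0.0797 and 0 in ESC and 45.6 and 53.2 in NPC (5.596 ± 0.14), and Col1a1 at 0.0713 and 0.0447 in ESC and 20.8 and 21.7 in NPC (4.39 ± 0.13). In ESC both of these fibroblast genes were under 0.1 FPKM, so other listed genes made up most of the ESC sum. Whether the ESC libraries held feeder RNA was not tested. Of 13 tested genes of lateral and intermediate mesoderm 12 rose and 1 fell, with sums over the 16 listed of 27.3 and 26.9 in ESC and 68.9 and 81.5 in NPC. Wt1, of the intermediate mesoderm, stood at 0.111 and 0.0348 in ESC and 11.9 and 9.98 in NPC (3.47 ± 0.16), while Pax2 and Irx3 of the same list are also neural tube genes.

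Blood genes were few but some were high, with 4 of 5 tested higher and 1 lower. The embryonic globin gene Hba-x stood at 0.270 and 0 in ESC and 52.2 and 42.7 in NPC. Hbb-y (30.2 and 21.7) and Hbb-bh1 (29.7 and 18.9) were listed at 0 in both ESC libraries. The blood list summed to 5.82 and 3.41 in ESC and 159 and 132 in NPC, while 10 of its 15 genes, Gata1, Klf1 and Tal1 among them, missed the filter. Of 12 tested extraembryonic endoderm genes 9 rose and 1 fell, and the list summed to 137 and 133 in ESC and 179 and 170.3 in NPC, where Gata6 reached 7.63 and 5.79 (2.82 ± 0.16), and Afp, Ttr and Apoa1 missed the filter. Of 7 tested definitive endoderm genes 6 rose and 1 fell, and the list summed to 9.54 and 7.97 in ESC and 49.6 and 58.0 in NPC, of which Krt19 made up the largest share in NPC. Of 11 tested endothelial genes 7 rose and 4 fell, and the list summed to 40.3 and 37.3 in ESC and 27.0 and 26.2 in NPC, with Pecam1, which ES cells express, down from 22.1 and 23.5 to 1.95 and 2.68 and Emcn up to 5.02 and 3.42. The epidermis list summed to 33.9 and 36.8 in ESC and 146 and 167 in NPC, with 7 of 10 tested higher and 3 lower. Krt18, given above with the epithelial genes, made up the largest share of the epidermis sum in NPC. Astrocyte and oligodendrocyte genes summed to 44.5 and 48.5 in ESC and 88.8 and 80.7 in NPC, with 6 of 9 higher and 3 lower. The presomitic list went from 23.3 and 25.6 in ESC to 23.5 and 19.8 in NPC, with 4 of 7 higher and 3 lower. Cardiac genes summed to 39.5 and 40.2 in ESC and 43.4 and 38.9 in NPC, with 4 of 9 higher and 5 lower. The trophoblast list went from 21.9 and 18.7 in ESC to 17.3 and 17.2 in NPC, with 2 of 4 higher and 2 lower. The part of these cells in the rises of shared genes such as Sox9, Twist1, Meis1, Hox and the imprinted genes was not tested.

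**Figure D5:**
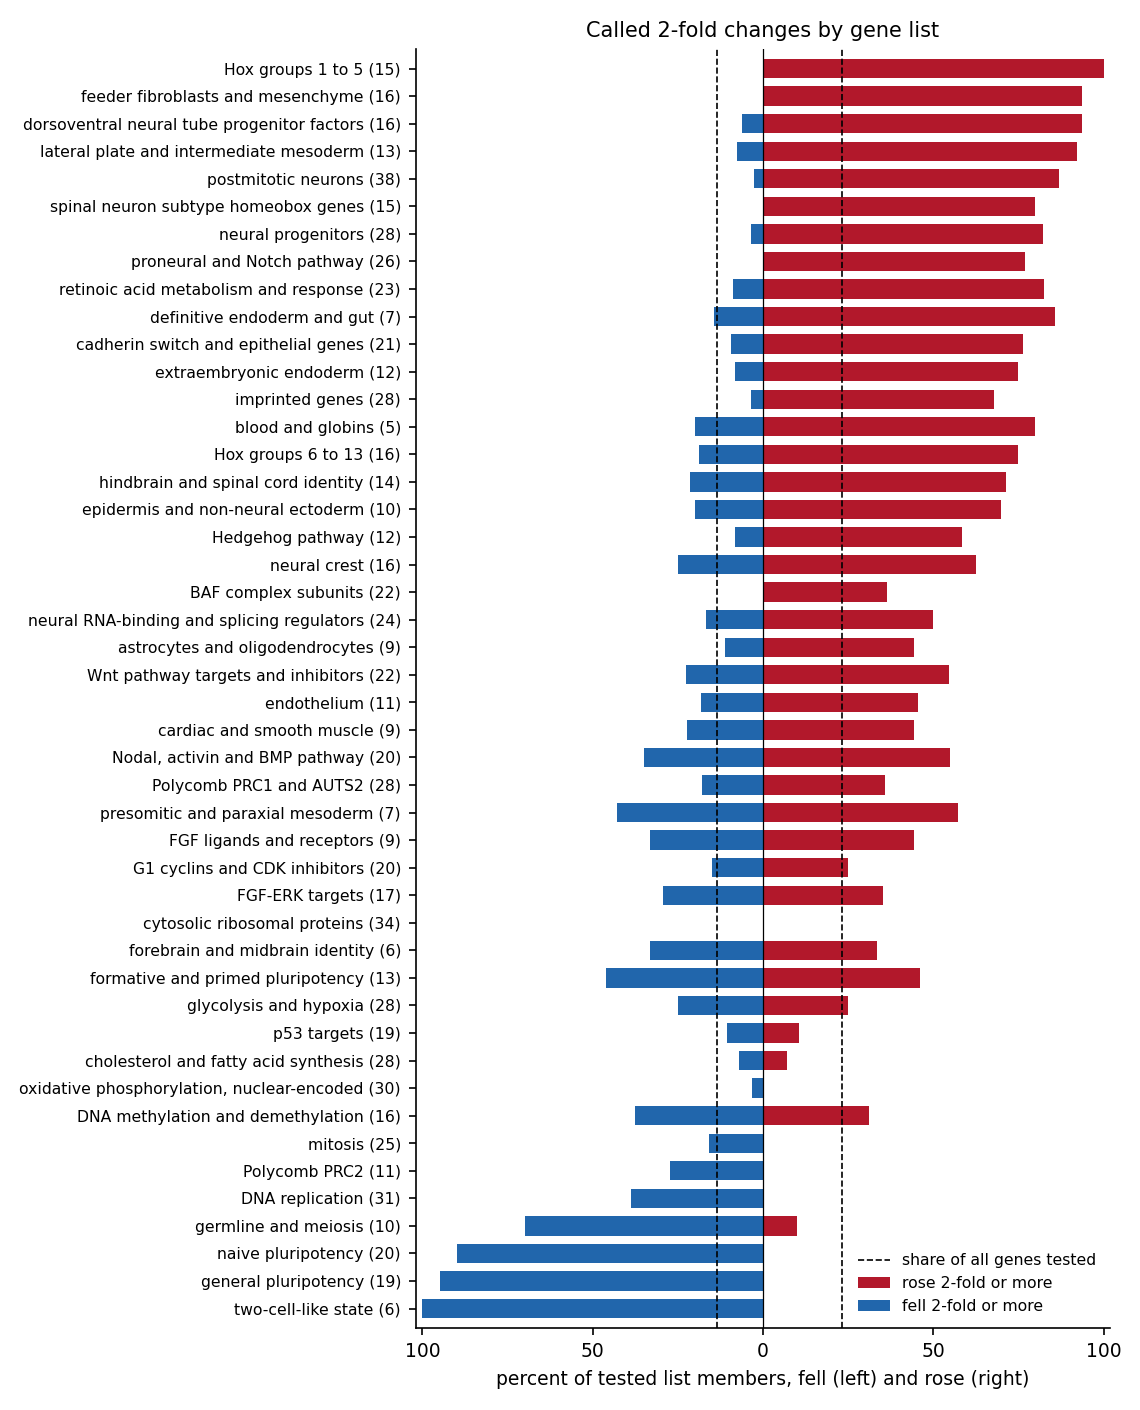
Percent of the tested members of each gene list that rose (right) or fell (left) by 2-fold or more at an adjusted p under 0.05, wild-type NPC against ESC, with the number tested in parentheses and lists of fewer than 5 tested genes left out; dashed lines mark 23.3% and 13.5%, the shares over all genes tested. Lists are ordered by the share that rose minus the share that fell, with Hox groups 1 to 5, mesenchyme, dorsoventral factors, lateral mesoderm and postmitotic neurons at the top and the 2-cell and both core pluripotency lists at the bottom.

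Some genes were close to on or off. In both NPC libraries 442 genes reached an FPKM of 1 while under 0.1 in both ESC libraries, and 96 of them reached 5 in both. The reverse held for 160 genes, of which 40 reached 5. Hoxb2, Hoxb8, Robo3, Dcx and Pou3f2 are of the former kind, and Tcl1, a coactivator gene of Akt in ES cells, Nodal, Lefty1 and Eras of the other. At the other end of the scale, the most abundant RNA outside small RNA genes was that of the elongation factor gene Eef1a1 in both stages (5800.4 and 6256 in ESC and 5866 and 6054 in NPC). Of the 10 highest genes of ESC, Npm1, nucleophosmin, fell from 3518 and 3194 to 1449.8 and 1454 (-1.21 ± 0.09), Hspa8, a heat shock cognate gene, from 2749.9 and 2850.3 to 1172 and 1171 (-1.26 ± 0.08) and Ftl1, ferritin light chain, from 2756 and 3179 to 937 and 957 (-1.64 ± 0.11). Of the 10 highest in NPC, Tpt1, of the translationally controlled tumor protein, rose (0.66 ± 0.09).

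Duplicates were close for most of these genes. The median absolute difference between duplicates was 0.13 in log2(FPKM + 1) in both stages, and the median standard error of a change was 0.13. Among genes with a mean FPKM of at least 5, 58 of 7496 in ESC and 79 of 8501 in NPC differed by 2-fold or more between duplicates. The largest gaps in ESC were those of Sap25 (13.3 and 2.59), Rps27rt and Rps27. The last pair are near-identical ribosomal protein genes, and their duplicates differed in opposite directions (1832 and 552 for Rps27rt, 593 and 1919 for Rps27), so the split of reads between them is uncertain.

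The knockout libraries allowed a test of whether the wild-type change differed in the libraries labelled as knockout. The test asked, per gene, whether the change from ESC to NPC in knockout minus that in wild type departed from 0. The genes were those that passed the filter in the wild-type libraries. A gene that reached an FPKM of 1 only in knockout libraries was therefore not tested. Numbers above and below, here and per gene group, describe the tested genes alone. The test passed for 2152 genes (16.9%), with the knockout change above the wild-type one in 1010 (7.95%) and below it in 1142 (8.99%). The count was 1376 without knockout ESC replicate 2 and 1426 without knockout NPC replicate 1. Dcaf7 RNA stood at 2.80 and 2.26 in the knockout ESC libraries and 8.36 and 8.99 in knockout NPC, lower than wild type at both stages and not absent, and its own change did not differ (0.42 ± 0.17, adjusted p = 0.134).

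Neuronal genes mostly passed. For 36 of the 38 postmitotic neuron genes the knockout change was below the wild-type one, and for none above it. Tagln3 went from 2.81 and 2.81 to 3.23 and 7.56 in knockout, a difference of -4.82 ± 0.43 (adjusted p = 0.00045), and Tubb3 from 36.8 and 35.0 to 4.42 and 7.85, a difference of -4.46 ± 0.27 (adjusted p = 0.00011). Tubb3 rose in wild type, whereas both knockout NPC libraries lay below both knockout ESC libraries. Of 28 neural progenitor genes 18 were below and none above, among them Fabp7 (-4.15 ± 0.44), Pou3f2 (-3.79 ± 0.23) and Sox2, which stood at 1.15 and 2.47 in knockout NPC (-3.33 ± 0.27). The difference was -0.66 ± 0.16 for Nes, and Cdh2 did not pass (-0.15 ± 0.16, adjusted p = 0.563).

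Other groups were divided. Of 19 general pluripotency genes 3 passed, all below, among them Sox2 and Foxd3, beside 16.9% of all tested genes. Neither Pou5f1 (-0.34 ± 0.22, adjusted p = 0.349) nor Nanog (0.04 ± 0.27, adjusted p = 0.947) did. Of 20 tested naive genes 5 were above, among them Klf5 (1.24) and Stat3 (1.02), and 4 below, among them Spp1 (-2.18) and Jam2 (-1.73). Of 6 tested genes of the 2-cell list 4 were above and none below. Of 23 retinoic acid genes 7 were below, with Cyp26a1 (-1.96 ± 0.24) and Crabp2 (-2.57 ± 0.31), and 4 above, with Aldh1a2 (1.83 ± 0.23), while Rarb (-0.52 ± 0.16, adjusted p = 0.0691) did not pass. Of 31 tested Hox genes 16 were below, Hoxb9 the most (-3.52 ± 0.36), and 5 above, Hoxb13 the most (2.25 ± 0.39). Of 31 DNA replication genes 17 were above and none below. Of the blood genes 5 of 5 were above, with Hba-x at 430.3 and 525 in knockout NPC (3.18 ± 0.22). The wild-type and knockout changes come from 1 fit with separate libraries. For a single gene, an exact two-sided permutation test of 2 libraries against 2, as between the stages, cannot go below p = 0.333. That limit was not worked out for the test between genotypes.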

How the data were processed

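Poly(A) RNA of 8 libraries was sequenced as strand-specific libraries, with 2 libraries for each of wild-type ESC, wild-type NPC, knockout ESC and knockout NPC. The authors deposited 1 Cufflinks table per library with FPKM per gene and its 95% confidence bounds. TopHat2 2.1.1, Cufflinks 2.2.1 and build mm9 are named in the submitters' processing notes. The gene annotation, filters and strand setting are not given in the sources used here. FPKM values were summed per gene symbol, which merged several entries for 285 symbols, and 12 symbols with a failed estimate were left out.

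Genes with an FPKM of at least 1 in 2 or more of the 4 wild-type libraries were tested in limma 3.58.1 (R 4.3.3), using log2(FPKM + 1) and a variance trend. All 8 libraries entered as 4 group means, which leaves 4 residual degrees of freedom, and p-values were adjusted by Benjamini-Hochberg over all 12707 genes. The script was tested on simulated data. FPKM are no counts, so no count test was run. The fragment numbers behind the values were inferred from the deposited bounds, which Cufflinks sets at 2 standard deviations, and they limit genes near an FPKM of 1.

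The genes and the 47 lists (917 genes, of which 912 matched by symbol and 4 by a synonym, and 757 were tested) were chosen with earlier results of these data known. Named are the 12 largest rises and falls with a mean FPKM of at least 5, without predicted, small RNA and histone genes, the most changed members of each list, any member of the lists on pluripotency, Hox, retinoic acid, progenitors, dorsoventral factors, BAF, RNA-binding, neurons and Polycomb, the 10 highest genes per stage, the largest gaps between duplicates and the largest differences between genotypes. Mnx1, Isl1, Lefty1, Blvrb and Syndig1 fall outside this rule and were chosen after their values were seen. Other pseudocounts, filters, scalings, ways to merge entries, a replicate block and fits without each library were tried as alternatives. Promoter windows came from RefSeq on GRCm38.p6 and were joined by symbol only. Some genes of the lists are not reported here.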

Additional observations from a re-analysis of the deposited data

Results flagged for a closer look

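The change from ESC to NPC differed between wild type and knockout in 2152 of 12707 genes by the interaction test in limma (adjusted p under 0.05). These 12707 genes were chosen by their level in the wild-type libraries. The count was 1376 without knockout ESC replicate 2, 1426 without knockout NPC replicate 1 and 1631 with a pseudocount of 0.1. Given here are the genes with the largest such differences among those that also changed in wild type and reached a mean FPKM of 5, as knockout change minus wild-type change in log2(FPKM + 1). The embryonic globin genes Hba-x (3.18), Hbb-y (2.89) and Hbb-bh1 (2.68) reached 430.3 and 525, 194 and 242 and 206 and 261 FPKM in knockout NPC. Cxcl12, a chemokine gene of mesenchyme (2.89), went from 0.180 and 0 to 12.2 and 6.61 in wild type and from 0 and 0.0520 to 80.5 and 59.7 in knockout. Gpx2, a glutathione peroxidase gene of epithelia (2.74), went from 5.38 and 7.63 to 2.42 and 1.08 in wild type and from 1.78 and 2.87 to 6.13 and 7.65 in knockout. On the lower side were neural genes. Miat, a noncoding RNA of neurons (-5.01), went from 0.477 and 0.307 to 75.8 and 68.4 in wild type and from 0.240 and 0.235 to 0.374 and 1.99 in knockout. Msx3 (-4.93) reached 0.248 and 2.55 in knockout NPC and Tagln3 (-4.82) 3.23 and 7.56. Ckb, brain creatine kinase (-4.76), went from 164 and 179 to 134 and 118 in wild type and from 206 and 227 to 5.67 and 4.17 in knockout, and Igfbpl1, a secreted protein gene of young neurons (-4.61), from 0.423 and 0.318 to 24.0 and 28.5 and from 0.884 and 1.21 to 0.273 and 1.15.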

How the results depend on the processing

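Against 9466 genes called, 8616 to 8679 calls were made when 1 wild-type library was left out, 6913 with an FPKM minimum of 5 and 9142 to 10579 under the other alternatives. Quantile normalization called 9142 genes, of which 7853 were among the 9466, and 8 of these 7853 turned direction. With an FPKM minimum of 5, which tests fewer genes, 3527 were higher, 1860 of these by 2-fold or more, 3386 were lower and 1423 differed between genotypes. Leaving out 1 library gave 1376 to 1755 genes that differ between genotypes, against 2152, with 1376 without knockout ESC replicate 2 and 1426 without knockout NPC replicate 1. With a pseudocount of 0.1 the 2-fold rises and falls were 3524 and 1986, and with median-ratio scaling, which lowered the changes by a median of 0.12, 2692 and 2023. The labels give no pairing of same-numbered libraries, and their deviations correlated at -0.0467 between wild-type ESC and NPC and at -0.171 to 0.243 over all 6 pairs of groups, with 0.243 for wild-type NPC with knockout ESC and 0.11 for wild-type ESC with knockout ESC; a fit with the replicate block called 9438 genes and 2024 differences between genotypes.

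Some genes that did not pass turned direction. These were Hes1 (-0.017 with median-ratio scaling), Mapt (-0.074 with median-ratio scaling, -0.27 with quantile normalization, -0.14 to 0.24 without 1 library), Lin28b (-0.0396), Smarcc1 (0.11), Rps27 (0.20) and Eef1a1 (0) with quantile normalization. Sycp1, which passed, was at -0.14 with quantile normalization and no longer passed. Without 1 library, Eef1a1 ranged from -0.070 to 0.039, Rps27 from -0.91 to 0.78 and Syndig1 from -0.38 to 0.23. Genes with wide gaps between duplicates also turned without 1 library, where Rbm4 ranged from -0.51 to 0.78, Rn4.5s from -0.070 to 1.53, Trmt61b from -0.99 to 0.28, Tsacc from -0.76 to 0.74, Nhej1 from -1.02 to 0.19 and Lrch4 from -1.08 to 0.11; Rbm4 was at -0.13 with quantile normalization. Lists with nearly even counts tipped with the processing. DNA methylation genes had 7 rises and 7 falls and cholesterol genes 10 and 9 with quantile normalization. FGF-ERK targets, at 8 and 6, had 7 and 8 with median-ratio scaling and 6 and 9 with quantile normalization. Glycolysis and hypoxia genes, at 9 and 11, had 10 and 9 without wild-type ESC replicate 2 or without wild-type NPC replicate 1; with quantile normalization they had 10 and 11, while their median went from -0.036 to 0.13. Cardiac and smooth muscle genes, at 4 and 5, had 4 and 2 without wild-type ESC replicate 2 and 4 and 3 without each of the other wild-type libraries. With an FPKM minimum of 5 the Nodal and BMP list had 6 rises and 7 falls, and the endothelial list had 0 and 2 where 7 and 4 passed before. The causes were not tested.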

Other observations

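The largest gaps between the NPC duplicates, among genes with a mean FPKM of at least 5, were those of Rn4.5s, a noncoding RNA gene (14.4 and 45.9), Tsacc (13.1 and 3.96), Rbm4, of a splicing factor (12.9 and 4.68), Trmt61b, of a mitochondrial tRNA methyltransferase (10.3 and 3.68), and Rarres2, the gene of chemerin (4.31 and 10.9). The 2 NPC libraries were not higher or lower in the same order for these genes. Rarres2 stood at 0.848 and 0.599 in ESC, so both NPC libraries lay above both ESC libraries despite the gap. In ESC, Nhej1 (4.95 and 12.7) and Lrch4 (13.1 and 5.14) followed the genes given above.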
